A study of Homo sapiens with 12 samples.

Results

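MYC, MAX and the MXD proteins are transcription factors that compete for a shared partner and a shared DNA element. MYC joins MAX and raises the transcription of genes of ribosome assembly, metabolism and cell division at E-boxes, whose core letters are CACGTG. MXD1, MXI1, MXD3, MXD4 and MNT also join MAX and bring the SIN3 corepressor to the same elements, while MGA joins MAX within a Polycomb complex. MLX is a MAX-like partner of MNT and some MXD proteins and of the glucose-sensing factors MLXIP (MondoA) and MLXIPL (ChREBP). In kidney cancer without VHL the network is known as a point of contact with the hypoxia-inducible factors (HIF), with MXI1 described as a HIF-1 target gene and MYC activity described as opposed by HIF-1 and favored by HIF-2. The data gave a change in 1 of these genes with HIF1A siRNA alone, a fall of MXI1 to a fitted 53.7% of control, and 0 calls with HIF2A siRNA alone. The double knockdown gave a fall of MXI1 of like size and higher MXD4 and MLX, while MYC and MAX did not pass the test in any comparison. In the double knockdown the call was kept in 21 of 22 alternative settings for MXI1, in 16 for MXD4 and in 14 for MLX. In a fit that did not pair libraries by replicate number, 0 members were called. Over all tested genes, 1.39% were called with HIF1A siRNA, 0.2% with HIF2A siRNA and 10.3% with the double knockdown. The network genes were chosen with earlier results of these data known, so their counts are a description. With so low a share for HIF2A siRNA, 0 calls there is not particular to these genes.

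The 9 genes described here (MYC, MAX, MGA, MXI1, MXD1, MXD3, MXD4, MNT and MLX) were taken by symbol from the 23106 gene symbols that were counted in each library. RNA was sequenced from RCC4 cells, a human line established from clear cell renal carcinoma that lacks functional VHL and so keeps HIF-1α and HIF-2α stable at normal oxygen. Every dish held 2 nM siRNA in total and was harvested 48 h after transfection with pools of siRNA. Control dishes received 2 nM control siRNA. HIF1A siRNA dishes received 1 nM HIF1A siRNA with 1 nM control siRNA, and HIF2A siRNA dishes received 1 nM siRNA against EPAS1, which encodes HIF-2α, with 1 nM control siRNA. The double knockdown received 1 nM of each HIF siRNA and no control siRNA. Each of the 4 groups had 3 biological replicates, numbered 1 to 3 and paired by number. The purpose of the knockdowns was to separate genes that depend on HIF-1 from those that depend on HIF-2, a question raised by loss of HIF1A with chromosome 14 in these tumors, and MAX is on the same chromosome. All measurements come from 1 cell line.

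Libraries held between 13263168 and 20451433 counts. The targeted genes were low where the labels place their siRNA: HIF1A, at 58.2 to 120.2 CPM (counts of the gene per 1000000 counts of the library) in control libraries, was at 15.0 to 22.2 CPM with HIF1A siRNA and 24.2 to 32.2 CPM in the double knockdown, and EPAS1, at 138.3 to 170.9 CPM in control libraries, was at 9.16 to 11.9 CPM with HIF2A siRNA and 7.01 to 11.3 CPM in the double knockdown. EPAS1 with HIF1A siRNA was at 101.1 to 134.2 CPM, and HIF1A with HIF2A siRNA at 110.7 to 136.2 CPM. EPAS1 was thus below every control library with HIF1A siRNA (log2 fold change -0.47, adjusted p = 0.275). HIF1A was less depleted in the double knockdown than with HIF1A siRNA (log2 difference 0.66, adjusted p = 0.182). Neither passed edgeR's test. Of the renal epithelial markers, PAX8 lay between 197.3 and 315.1 CPM in the 12 libraries, and PAX2, KRT8, KRT18, CA9 and NDUFA4L2 were all above 0. The summed level of these 6 markers was 1060 to 1973 CPM in control libraries, 795.6 to 1285 CPM with HIF1A siRNA, 1158 to 1808 CPM with HIF2A siRNA and 840.9 to 1350 CPM in the double knockdown. The members of this list differed in direction: CA9 (log2 fold change -3.65 with HIF1A siRNA and -4.16 with the double knockdown) and NDUFA4L2 (-1.94 and -2.06), both also known as HIF-1 targets, fell in both comparisons by edgeR's test, while PAX8, PAX2, KRT8 and KRT18 had positive values in both, and KRT18 passed the test in the double knockdown (0.49). PTPRC, CD3E and PECAM1, which define leukocytes, T cells and endothelium, had 0 counts in all 12 libraries, CDH5 and VWF reached at most 6 and 8 counts, and CD68, which is not restricted to leukocytes, lay between 32.6 and 65.1 CPM. The pericyte markers RGS5, PDGFRB and ACTA2 summed to 15.2 to 20.3 CPM in control libraries, 14.3 to 24.7 CPM with HIF1A siRNA, 15.3 to 28.1 CPM with HIF2A siRNA and 14.8 to 26.5 CPM in the double knockdown.

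MYC was the most abundant of the 9 mRNAs. In control libraries it stood at 49.95 ± 3.16 CPM per kilobase of transcript (SD, n = 3), where a library's CPM was divided by the length of the canonical transcript so that genes could be compared. MAX and MXI1 followed with equal means of 13.8 CPM per kilobase (SD 1.36 and 2.03), and MXD3 with 11.4 ± 4.78 CPM per kilobase. MLX was at 7.71 ± 1.17, MXD4 at 5.25 ± 1.91, MGA at 4.54 ± 1.59 and MNT at 4.21 ± 0.609 CPM per kilobase, and neighbors among these last 3 differed by less than the larger SD of the pair. MXD1 was the lowest member at 0.697 ± 0.214 CPM per kilobase. Within the control group, therefore, MYC exceeded its partner MAX in level per length, and MXI1 and MXD3 carried most of the MXD mRNA per kilobase. The place of MXD3 rests on the length of 1 transcript (1067 bases). Without division by length, MXD4 (mean 20.3 CPM) was above MXD3 (12.15 CPM) in control libraries. In control replicate 3, MXD4 was above MXD3 per kilobase as well (13.8% against 13.32% of MYC).

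Replicate number and siRNA took very different shares of the variation of these genes. For MXI1 and MLX, siRNA accounted for 79.7% and 75.7% of the variance of log2 CPM over the 12 libraries, against 26.2% over all tested genes. For MGA and MXD3, replicate number accounted for 83.5% and 73.9%, against 45.4% over all tested genes. MYC had 18.6% of its variance with siRNA and 31.6% with replicate number, and MAX had 9.24% and 1.84%, so that most of the variance of MAX lay with neither. MNT (50.2%) and MXD4 (41.2%) lay between, and MXD1 had 10% with siRNA.

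**Figure D1:**
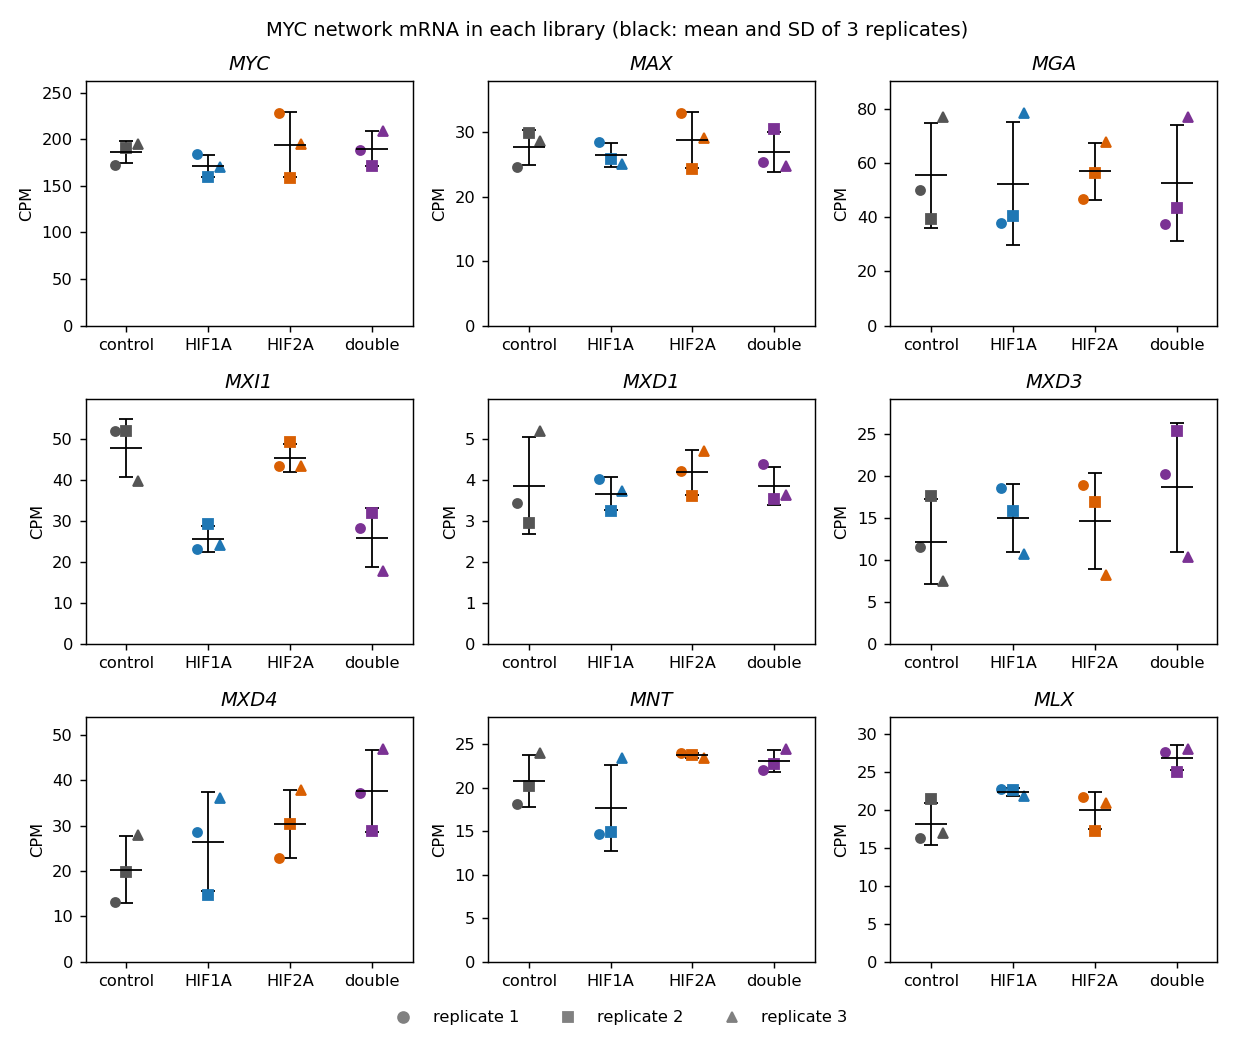
Level of each of the 9 genes in CPM (y axis, from 0) in the 4 siRNA groups (x axis), with 1 point per library, its shape giving the replicate number, and black marks giving the mean and SD of 3 libraries. MXI1 with HIF1A siRNA (23.2 to 29.3 CPM) and in the double knockdown (17.7 to 31.8 CPM) lies below every control and HIF2A siRNA library, and MLX in the double knockdown (24.97 to 28.0 CPM) lies above every other library.

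MXI1, whose protein joins MAX and represses E-box genes through SIN3, was the member that HIF1A siRNA lowered. It stood at 51.8, 51.9 and 39.6 CPM in control replicates 1, 2 and 3 and at 23.2, 29.3 and 24.1 CPM with HIF1A siRNA. With HIF2A siRNA it stood at 43.3, 49.3 and 43.4 CPM, and in the double knockdown at 28.2, 31.8 and 17.7 CPM. All 6 libraries that received HIF1A siRNA were below all 6 that did not, and the lowest value of all was that of double knockdown replicate 3. Here and below, such separation is a description, and the share of all tested genes that separate in this way was not computed. Within pairs, HIF1A siRNA left 44.8%, 56.4% and 60.9% of the control value, and the double knockdown 54.4%, 61.3% and 44.7%. The order of the group means was control siRNA, HIF2A siRNA, double knockdown and HIF1A siRNA, and only the middle neighbors in that order did not overlap.

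In edgeR's quasi-likelihood test over 13000 genes, with p-values adjusted by Benjamini-Hochberg, MXI1 changed by -0.90 ± 0.15 on the log2 scale (SE) with HIF1A siRNA (adjusted p = 0.00317), which is a fitted level of 53.7% of control. It was 1 of 9 members called, where 1.39% of all tested genes were called in this comparison. The members were chosen with earlier results of these data known, so counts of members called are a description. With HIF2A siRNA the log2 fold change of MXI1 was -0.07 ± 0.14 (adjusted p = 0.958 in the same edgeR test), with a 95% interval from -0.37 to 0.24. In that comparison edgeR and DESeq2 each called 0 of 9 members, where 0.2% of genes were called by edgeR, and 1 member (MXD4) had an unadjusted p under 0.05. The double knockdown changed MXI1 by -0.90 ± 0.15 (adjusted p = 0.00102, edgeR), and it was 1 of 3 members called, where 10.3% of genes were called. In these bulk libraries, fewer cells of a type and less RNA per cell cannot be told apart. The 3 comparisons share their control libraries.

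MXI1 was also lower in both comparisons between knockdowns that differ in HIF1A siRNA. Against HIF2A siRNA, HIF1A siRNA gave -0.83 ± 0.15 (adjusted p = 0.00483, edgeR), and MXI1 was the 1 member called where 1.92% of genes were called. The double knockdown against HIF2A siRNA, in which 1 nM HIF1A siRNA takes the place of 1 nM control siRNA, gave -0.84 ± 0.15 (adjusted p = 0.00343, edgeR), again the 1 member called, where 4% of genes were called. The double knockdown against HIF1A siRNA gave -0.01 ± 0.15 (adjusted p = 0.991, edgeR), with an interval from -0.32 to 0.31, and edgeR and DESeq2 each called 0 of 9 members where 1.4% of genes were called by edgeR, with 2 members (MXD4 and MNT) at an unadjusted p under 0.05 and both higher. The interaction, that is, the double knockdown minus the sum of both single effects, was 0.06 ± 0.20 for MXI1 and between -0.07 and 0.19 for all 9 members (adjusted p = 0.999 for each, edgeR). Across all 13000 genes 0% were called for the interaction by edgeR, with 318 at an unadjusted p under 0.05, and DESeq2 called 11. Against HIF2A siRNA, the call of MXI1 was kept in 18 of 23 alternative settings with HIF1A siRNA and in 19 of 22 with the double knockdown. Against control, across 23 alternative settings the adjusted p of MXI1 with HIF1A siRNA ranged from 3.94e-06 to 0.182. Without replicate 1 the adjusted p of MXI1 with HIF1A siRNA was 0.109 (log2 fold change -0.76, edgeR), and in a fit without the pairing by replicate number it was 0.182 with HIF1A siRNA and 0.0734 with the double knockdown.

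**Figure D2:**
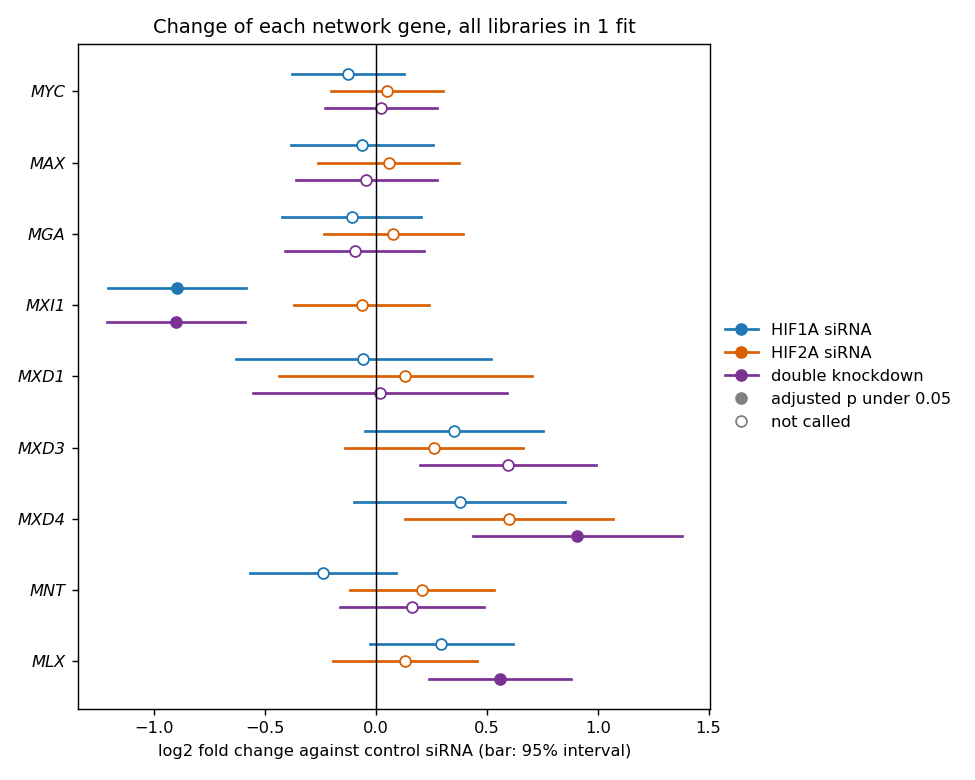
Fitted log2 fold change of each of the 9 genes against control siRNA (x axis, points) with its 95% interval (bars) for HIF1A siRNA, HIF2A siRNA and the double knockdown, where filled points have an adjusted p under 0.05. MXI1 is at -0.90 with HIF1A siRNA and with the double knockdown and at -0.07 with HIF2A siRNA, MXD4 and MLX are filled only in the double knockdown (0.91 and 0.56), and the intervals of MYC and MAX cross 0 in all 3 comparisons.

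RefSeq lists 3 start sites for MXI1, on chromosome 10, and the deposited counts add up all its transcripts, so they do not tell which start was used. The windows from 250 bases before to 50 bases after each start (GRCh38.p14) were searched on both strands for the letters ACGTG and GCGTG, which are the core of the HIF response element. The first window held neither, and both others held at least 1. Stretches upstream of start 2, chr10:110209981-110210220, plus strand, and of start 3, chr10:110225746-110225985, plus strand, are shown because MXI1 is the member that moved with HIF1A siRNA, with the matched letters in capitals.
MXI1 start 2: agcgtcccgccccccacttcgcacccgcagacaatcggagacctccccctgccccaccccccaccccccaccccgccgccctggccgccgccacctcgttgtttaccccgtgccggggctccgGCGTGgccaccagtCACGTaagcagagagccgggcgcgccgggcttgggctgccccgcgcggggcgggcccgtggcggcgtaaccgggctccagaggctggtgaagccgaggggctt
MXI1 start 3: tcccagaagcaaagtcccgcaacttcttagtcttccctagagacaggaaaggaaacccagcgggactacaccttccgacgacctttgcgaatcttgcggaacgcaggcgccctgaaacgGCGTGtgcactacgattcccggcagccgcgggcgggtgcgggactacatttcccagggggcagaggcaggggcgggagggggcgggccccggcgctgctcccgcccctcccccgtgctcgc
In the first of these stretches the capitals mark GCGTG and, on the other strand, ACGTG. Of 34943 promoter windows of the same length, 48.4% held ACGTG or GCGTG on either strand (21.4% and 36.5% for each), so a match is common and is a description only.

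The genes whose pattern over the 12 libraries was most like that of MXI1 were LOX, PIGA, LRRC58, HK2 and RLF. After the mean of each replicate number was removed, their log2 CPM had Pearson correlations with MXI1 of 0.980, 0.976, 0.971, 0.969 and 0.968 over 12 libraries, which share the 4 groups. LOX, which crosslinks collagen, was at -1.54 (log2 fold change against control) with HIF1A siRNA, -0.05 with HIF2A siRNA and -1.74 with the double knockdown. HK2, the first enzyme of glycolysis, had -1.01, -0.02 and -0.96 in the same order. In that order PIGA had -0.79, 0.03 and -0.76, LRRC58 -0.54, -0.08 and -0.63, and RLF -0.63, -0.05 and -0.55. All 5 were picked by their likeness to MXI1 in these same libraries, so a like pattern follows from the choice.

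MYC itself did not pass the test in any comparison. It stood at 172.5, 190.3 and 194.8 CPM in control replicates 1, 2 and 3 and at 183.8, 159.9 and 169.7 CPM with HIF1A siRNA. With HIF2A siRNA it stood at 228.1, 158.3 and 195.1 CPM, and in the double knockdown at 188.2, 171.6 and 209.0 CPM. The groups overlapped throughout, and both the highest and the lowest of the 12 values were HIF2A siRNA libraries. The log2 fold changes against control were -0.12 ± 0.12 with HIF1A siRNA (95% interval -0.38 to 0.13), 0.05 ± 0.12 with HIF2A siRNA (-0.21 to 0.30) and 0.02 ± 0.12 with the double knockdown (-0.23 to 0.27), with adjusted p = 0.862, 0.965 and 0.931 in edgeR's test. The genes most like MYC over the 12 libraries were RPL32P3, RNF126, ZNF341, TESK1 and DDT, with Pearson correlations from 0.884 to 0.922. RPL32P3 is a ribosomal protein pseudogene, and fragments mapping to several places were discarded before counting.

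MAX, the partner that MYC, the MXD proteins, MNT and MGA share, did not pass the test in any comparison. It stood at 24.6, 29.8 and 28.6 CPM in control replicates, 28.6, 25.8 and 25.1 CPM with HIF1A siRNA, 33.0, 24.2 and 29.1 CPM with HIF2A siRNA and 25.4, 30.5 and 24.8 CPM in the double knockdown. All 4 groups overlapped, and the log2 fold changes against control lay between -0.06 and 0.06 with adjusted p from 0.884 to 0.967 (edgeR). FNTB overlaps MAX on the opposite strand, and the strand setting of the counting is not given in the sources used here, so some MAX counts may be of FNTB or the reverse.

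MGA, which pairs with MAX in a repressive Polycomb complex, varied mainly between replicates. It stood at 50.0, 39.3 and 76.9 CPM in control replicates 1, 2 and 3, 37.9, 40.6 and 78.4 CPM with HIF1A siRNA, 46.6, 56.1 and 67.7 CPM with HIF2A siRNA and 37.4, 43.4 and 76.9 CPM in the double knockdown. Replicate 3 was the highest in every group. Its log2 fold changes against control lay between -0.11 and 0.08 with adjusted p from 0.727 to 0.952 (edgeR).

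MXD4, an MXD protein known from resting and differentiated cells, was higher in the double knockdown. It stood at 13.2, 19.7 and 28.0 CPM in control replicates 1, 2 and 3 and at 37.3, 28.9 and 46.9 CPM in the double knockdown. With HIF1A siRNA it stood at 28.6, 14.7 and 36.2 CPM, and with HIF2A siRNA at 22.8, 30.4 and 37.9 CPM. The double knockdown did not overlap control, by a margin of less than 1 CPM between its lowest and the highest control library, while both single knockdowns overlapped control and each other. Within pairs the double knockdown was at 281.7%, 146.5% and 167.7% of control, and HIF2A siRNA at 172.3%, 154.2% and 135.5%. MXD4 rose by 0.91 ± 0.22 on the log2 scale in the double knockdown (adjusted p = 0.0168, edgeR). The values were 0.60 ± 0.22 with HIF2A siRNA (adjusted p = 0.619) and 0.38 ± 0.22 with HIF1A siRNA (adjusted p = 0.718), neither of which passed edgeR's test. Between the double knockdown and HIF1A siRNA the log2 difference was 0.53 ± 0.22 (adjusted p = 0.323, edgeR), so a difference between these groups was not shown. The call in the double knockdown was lost without control replicate 1 (adjusted p = 0.0878), control replicate 3 (0.0577) or double knockdown replicate 1 (0.0967), and without all libraries of replicate 1 (0.141) or 3 (0.149), in edgeR's test.

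MLX, the partner of MondoA and ChREBP, also rose in the double knockdown. It stood at 16.3, 21.4 and 16.9 CPM in control replicates 1, 2 and 3 and at 27.6, 24.97 and 28.0 CPM in the double knockdown. With HIF1A siRNA it stood at 22.7, 22.6 and 21.8 CPM, and with HIF2A siRNA at 21.7, 17.2 and 20.9 CPM. Every double knockdown library was above all 9 others. Every HIF1A siRNA library was above the control libraries, but the lowest (21.79 CPM) was close to the highest control library (21.37 CPM). The share of all tested genes that separate in these ways was not computed. The log2 fold change in the double knockdown was 0.56 ± 0.15 (adjusted p = 0.0283, edgeR), and within pairs MLX was at 169.3%, 116.8% and 165.4% of control. It was 0.29 ± 0.15 with HIF1A siRNA (adjusted p = 0.636) and 0.13 ± 0.15 with HIF2A siRNA (adjusted p = 0.909), neither of which passed edgeR's test, and 0.43 ± 0.15 between the double knockdown and HIF2A siRNA (adjusted p = 0.143, edgeR). The call was lost without replicate 1 or 3, without control replicate 1 or 3 and without any of the double knockdown libraries, with adjusted p from 0.0543 to 0.333 (edgeR). PSMC3IP overlaps MLX on the opposite strand and had a log2 fold change of 0.23 ± 0.20 in the double knockdown (adjusted p = 0.52, edgeR).

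The E-box letters CACGTG were found in the RefSeq windows of MXD4, MNT and MLX, 3 of the 8 members with a window, and in 3 of 13 member windows against 7.23% of all 34943 windows. They are shown with 12 bases on each side because 2 of these genes are those that rose, and CACGTG, which reads the same on both strands, also contains ACGTG. Positions are chr4:2262330-2262359 (minus strand) for MXD4, chr17:2401236-2401265 (minus strand) for MNT and chr17:42567038-42567067 (plus strand) for MLX, all in GRCh38.p14.
MXD4: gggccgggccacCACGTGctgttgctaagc
MNT: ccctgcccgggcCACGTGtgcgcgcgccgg
MLX: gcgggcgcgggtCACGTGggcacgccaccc
MNT carries the same letters and did not pass the test in any comparison, and a match is a description only.

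MXD3, an MXD protein known from dividing cells, stood at 11.5, 17.6 and 7.44 CPM in control replicates 1, 2 and 3 and at 20.3, 25.3 and 10.3 CPM in the double knockdown. With HIF1A siRNA it was at 18.6, 15.8 and 10.7 CPM, and with HIF2A siRNA at 18.9, 16.9 and 8.16 CPM. The groups overlapped, replicate 3 was the lowest in each, and the double knockdown was above control in all 3 pairs (176.8%, 144.3% and 138.1%). The log2 fold change of 0.60 ± 0.19 in the double knockdown missed the threshold (adjusted p = 0.0566, edgeR), and it passed in 8 of 22 alternative settings. MXD3 overlaps PRELID1 on the opposite strand and RAB24 on the same strand, whose log2 fold changes in the double knockdown were -0.23 and -0.07.

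MXD1, an MXD protein induced during differentiation, was close to the lower end of what these libraries resolve, with 45 to 89 counts per library. It stood at 3.43, 2.96 and 5.21 CPM in control replicates, 4.03, 3.24 and 3.75 CPM with HIF1A siRNA, 4.23, 3.63 and 4.72 CPM with HIF2A siRNA and 4.40, 3.54 and 3.65 CPM in the double knockdown. The groups overlapped, and the log2 fold changes against control lay between -0.06 and 0.13 with SE of 0.27 (adjusted p from 0.955 to 0.98, edgeR).

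MNT, a widely expressed repressor that can join MAX or MLX, stood at 18.1, 20.2 and 24.0 CPM in control replicates 1, 2 and 3, 14.7, 15.0 and 23.4 CPM with HIF1A siRNA, 24.0, 23.8 and 23.4 CPM with HIF2A siRNA and 22.1, 22.7 and 24.4 CPM in the double knockdown. Replicates 1 and 2 with HIF1A siRNA were the lowest of the 12 values, and replicate 3 of that group lay with the other groups. HIF1A siRNA against HIF2A siRNA gave a log2 difference of -0.45 ± 0.15 (adjusted p = 0.221), and the double knockdown against HIF1A siRNA 0.40 ± 0.15 (adjusted p = 0.284), neither of which passed edgeR's test.

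Because counts of 2 genes in a library share its depth, their ratio does not depend on scaling between libraries. MXI1 had 30.0, 27.3 and 20.3 counts per 100 MYC counts in control replicates 1, 2 and 3 and 12.6, 18.3 and 14.2 with HIF1A siRNA. It had 19.0, 31.2 and 22.2 with HIF2A siRNA and 15.0, 18.5 and 8.48 in the double knockdown. All 6 libraries with HIF1A siRNA were below all 6 without it, although HIF2A siRNA replicate 1 (19.0) was close to double knockdown replicate 2 (18.5). The means were 25.9 ± 4.99, 15.0 ± 2.93, 24.1 ± 6.31 and 14.0 ± 5.10 for control siRNA, HIF1A siRNA, HIF2A siRNA and the double knockdown (SD, n = 3).

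Summed per kilobase, MXI1, MXD1, MXD3 and MXD4 amounted to 62.4 ± 10.9% of MYC in control libraries, 62.8 ± 3.29% with HIF1A siRNA, 69.8 ± 18.1% with HIF2A siRNA and 70.7 ± 20.2% in the double knockdown, and the ranges of all 4 groups overlapped. The share of MXI1 in this sum was 44.5 ± 5.11%, 25.7 ± 4.93%, 37.1 ± 3.36% and 20.8 ± 2.00% in the same order, and the groups with HIF1A siRNA (18.6 to 30.6%) did not overlap those without it (33.9 to 50.2%). MXD4 made up 17.5 ± 8.49%, 23.8 ± 10.5%, 22.7 ± 8.15% and 29.3 ± 13.3%, with overlap between all groups. These sums weight each gene by the length of 1 transcript and have no test.

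**Figure D3:**
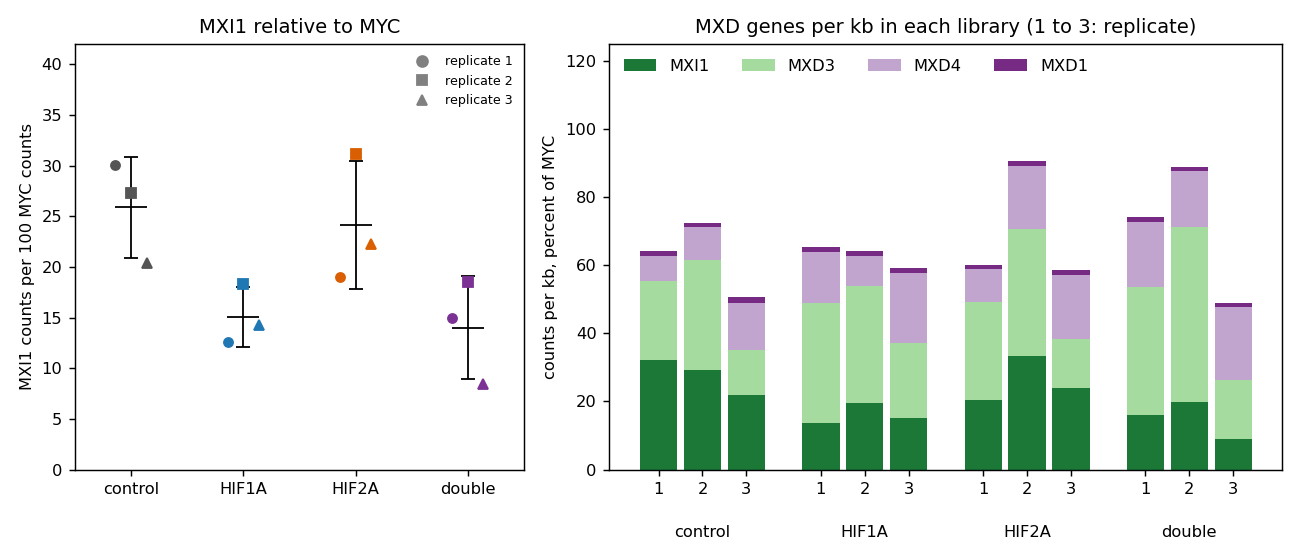
Left, MXI1 counts per 100 MYC counts in each library (y axis, from 0) by siRNA group, with shapes for replicates and black marks for the mean and SD of 3 libraries. Right, counts per kilobase of MXI1, MXD3, MXD4 and MXD1 stacked as percent of MYC (y axis, from 0) in each library; the stacks average 62.4% in control libraries and 70.7% in the double knockdown, while the MXI1 part is 44.5% and 20.8% of the stack.

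Of the other network genes, MYCN had 0 counts in all 12 libraries, which at 3 counts allows at most 0.147 to 0.226 CPM per library (counting error only), and MLXIPL had at most 2 counts. Neither was tested. MYCL, listed under its older symbol MYCL1, stood at 8.34, 4.21 and 2.42 CPM in control replicates and 3.69, 2.18 and 2.19 CPM in the double knockdown, with a log2 fold change of -0.80 ± 0.36 that did not pass (adjusted p = 0.182, edgeR). MLXIP, the MondoA partner of MLX, stood at 93.8, 59.7 and 98.9 CPM in control replicates and had log2 fold changes from -0.21 to 0.21 against control, with adjusted p from 0.591 to 0.900 (edgeR).

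TXNIP and ARRDC4, the alpha-arrestin genes that MLX and MondoA are known to drive, fell with HIF1A siRNA. TXNIP, which restrains glucose uptake, stood at 118.8, 87.5 and 97.7 CPM in control replicates 1, 2 and 3, 69.7, 62.3 and 72.2 CPM with HIF1A siRNA, 104.3, 116.5 and 130.9 CPM with HIF2A siRNA and 74.6, 60.2 and 66.3 CPM in the double knockdown. ARRDC4 stood at 27.5, 18.6 and 17.2 CPM, 12.5, 13.02 and 10.1 CPM, 22.3, 26.5 and 19.2 CPM, and 13.2, 12.5 and 12.8 CPM in the same order. For both genes every library with HIF1A siRNA was below every library without it, which describes the same values that the test uses. TXNIP changed by -0.57 ± 0.12 with HIF1A siRNA and by -0.59 ± 0.12 in the double knockdown (adjusted p = 0.0305 and 0.00638, edgeR), and ARRDC4 by -0.82 ± 0.17 and -0.69 ± 0.17 (adjusted p = 0.0242 and 0.0183). Against HIF2A siRNA the values were -0.79 ± 0.12 for TXNIP and -0.94 ± 0.17 for ARRDC4 with HIF1A siRNA (adjusted p = 0.00197 and 0.00687, edgeR), and -0.81 ± 0.12 and -0.81 ± 0.17 with the double knockdown (adjusted p = 0.00113 and 0.0137). MLX mRNA was above every control library with HIF1A siRNA, without passing edgeR's test (adjusted p = 0.636), and in the double knockdown (adjusted p = 0.0283). What part MLX or MondoA has in these falls was not tested. Without control replicate 1, the highest control library of both genes, the log2 fold changes with HIF1A siRNA were -0.45 and -0.61 (adjusted p = 0.165 and 0.17, edgeR), and in a fit without the double knockdown libraries the adjusted p was 0.0969 and 0.0533 (log2 fold changes -0.57 and -0.82). Without the pairing by replicate number it was 0.384 and 0.266, and over 23 alternatives the call with HIF1A siRNA was kept in 10 for TXNIP (adjusted p up to 0.384) and 13 for ARRDC4 (up to 0.473), with the direction kept in all 23. In the double knockdown the call was kept in 20 and 16 of 22.

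**Figure D4:**
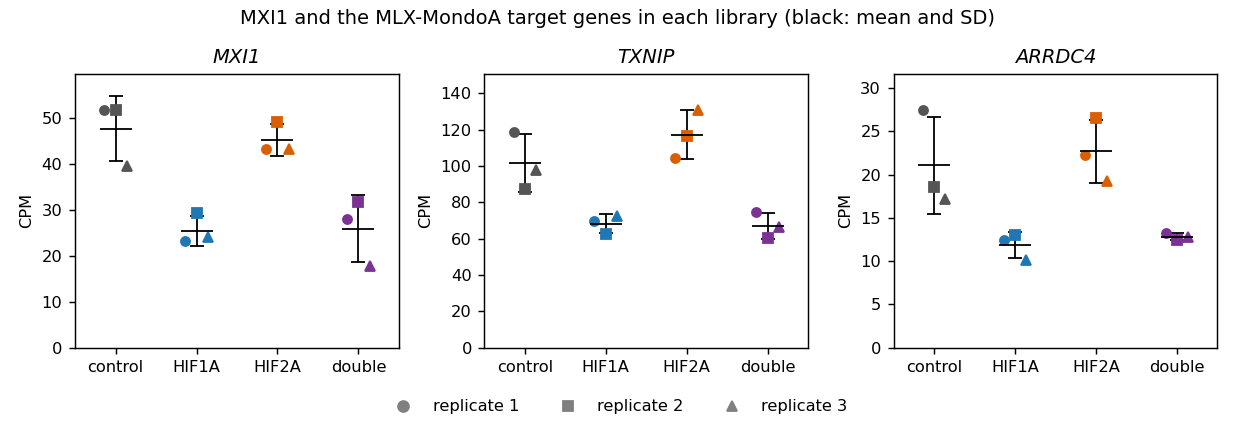
CPM (y axes, from 0) of MXI1, TXNIP and ARRDC4 in each library by siRNA group, with shapes for replicates and black marks for the mean and SD of 3 libraries. In all 3 panels the HIF1A siRNA and double knockdown libraries lie below the control and HIF2A siRNA libraries (for TXNIP, 60.2 to 74.6 CPM against 87.5 to 130.9 CPM).

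Genes known to respond to MYC, a list of 57 genes that are mostly of ribosome assembly, gave 1 call in the single knockdowns, HK2. With HIF1A siRNA, 1 of 57 was called and fell (HK2, also known as a HIF-1 target, from 112.2 to 136.2 CPM in control libraries to 54.3 to 65.9 CPM), where 1.39% of all tested genes were called, 0 rose, and the median log2 fold change of the list was 0.10 against 0.00 over all genes. With HIF2A siRNA edgeR and DESeq2 called 0 of 57, where edgeR called 0.2% of all genes, with 3 at an unadjusted p under 0.05, and the median was 0.10 against 0.00. In the double knockdown 8 of 57 rose and HK2 fell (log2 fold change -0.96), where 3.86% of all tested genes rose and 6.42% fell, and the list's median was 0.21 against 0.00 for all genes. Of the 57, 48 had a positive value with HIF1A siRNA, 45 with HIF2A siRNA and 49 in the double knockdown, where 50.6%, 50.1% and 50.6% of all genes did, and the 3 comparisons share their control libraries. The list was written with earlier results of these data known and its genes vary together, so these counts are a description.

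Among the genes of that list that passed the test, those that rose furthest in the double knockdown were NDUFAF4, MYBBP1A and IMP4. NDUFAF4, an assembly factor of respiratory complex I, stood at 32.4, 35.8 and 28.6 CPM in control replicates and 50.8, 58.6 and 40.5 CPM in the double knockdown (log2 fold change 0.62 ± 0.13, adjusted p = 0.00588, edgeR). MYBBP1A, a nucleolar protein, stood at 80.8, 83.8 and 105.4 CPM and at 135.2, 114.1 and 138.2 CPM (0.52 ± 0.11, adjusted p = 0.00598, edgeR), and IMP4, of the small-subunit processome, at 56.4, 65.7 and 50.6 CPM and at 85.3, 79.0 and 69.4 CPM (0.44 ± 0.11, adjusted p = 0.0202, edgeR). For all 3, no double knockdown library overlapped control, but they were picked by their rise in this comparison, so this is not separate evidence. The number called in the list ranged from 1 to 21 of 57 when single libraries or replicate numbers were left out, with 1 called without replicate 1 and 21 without HIF2A siRNA replicate 2.

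**Figure D5:**
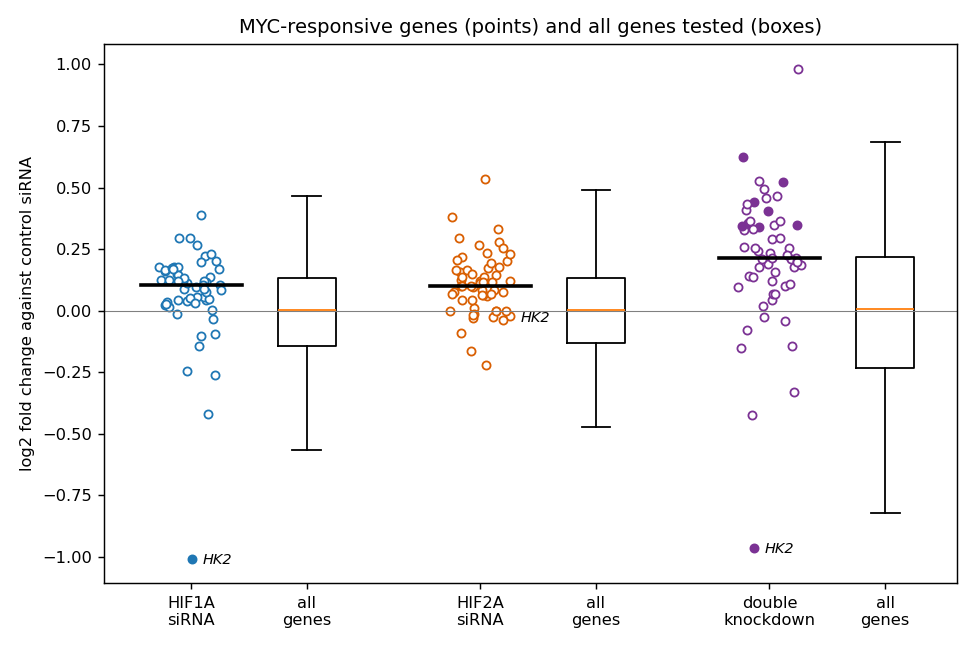
Log2 fold change against control siRNA (y axis) of 57 MYC-responsive genes (points, filled where the adjusted p is under 0.05, with the list's median as a black line) beside all 13000 tested genes (boxes from the lower to the upper quartile with the median as a line and whiskers at the 5th and 95th percentiles) for the 3 knockdowns. The list's median is 0.10, 0.10 and 0.21 with HIF1A siRNA, HIF2A siRNA and the double knockdown, and HK2 lies at -1.01, -0.02 and -0.96.

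Of 14 subunits of the SIN3 corepressor, through which the MXD proteins and MNT act, 0 were called by edgeR with HIF1A siRNA (2 at an unadjusted p under 0.05, and 1 called by DESeq2) and 0 with HIF2A siRNA (0 with p below 0.05 before adjustment, and 0 called by DESeq2). Over all tested genes, edgeR called 1.39% with HIF1A siRNA and 0.2% with HIF2A siRNA. In the double knockdown 2 subunits fell, where 10.3% of all tested genes were called and 6.42% fell. SAP30, a bridging subunit, stood at 48.2, 51.8 and 27.2 CPM in control replicates and 31.7, 34.1 and 21.2 CPM in the double knockdown (log2 fold change -0.52 ± 0.13, adjusted p = 0.0161, edgeR), and ING2, which reads methylated histone tails, at 18.6, 12.7 and 8.49 CPM and at 10.2, 7.07 and 4.09 CPM (-0.92 ± 0.21, adjusted p = 0.0104, edgeR). Both were lower than control in all 3 pairs, but they were named because of their calls in this comparison, so this is not separate evidence. Of 9 tested partners of MGA in its Polycomb complex, 1 rose in the double knockdown, where 3.86% of all tested genes rose. It was WDR5 (log2 fold change 0.40 ± 0.11, adjusted p = 0.0338, edgeR). RING1, the tenth partner, is listed at 0 in all 12 libraries, which need not mean that its mRNA was absent, and was not tested. Among these partners edgeR and DESeq2 called 0 with either single knockdown (unadjusted p under 0.05 for 0 genes with HIF1A siRNA and 1 with HIF2A siRNA). Of 14 MYC coactivators, 2 rose in the double knockdown, where 3.86% of all tested genes rose. They were WDR5, which is in both lists, and the acetyltransferase KAT2A (log2 fold change 0.57 ± 0.13, adjusted p = 0.00887, edgeR). Among the coactivators edgeR and DESeq2 called 0 with either single knockdown (unadjusted p under 0.05 for 0 genes with HIF1A siRNA and 1 with HIF2A siRNA). Of 11 genes of the MYC partner ZBTB17 and of MYC turnover, edgeR and DESeq2 called 0 in each comparison with control, with 0, 0 and 2 at an unadjusted p under 0.05 for HIF1A siRNA, HIF2A siRNA and the double knockdown. With libraries or replicate numbers left out, the calls in the double knockdown ranged from 0 to 2 for the SIN3 list (0 without replicate 1 or 3), from 0 to 1 for the partners of MGA (0 in 9 of 15 such fits) and from 0 to 3 for the coactivators (0 without replicate 3 or without double knockdown replicate 2).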

How the data were processed

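Poly(A) RNA libraries of RCC4 cells were made with a directional kit. The authors trimmed adaptors (TrimGalore 0.3.3), aligned reads to GRCh37 (hg19) by HISAT2 (2.05), discarded fragments mapping to several places (Picard 2.0.1), counted fragments per gene with HTSeq (0.5.4p3) and deposited raw counts per symbol for each library. Whether strand was used is not given in the sources used here. From these counts, all 12 libraries were fitted together with edgeR (4.0.16, R 4.3.3): TMM scaling (factors 0.98 to 1.02), a filter on low counts (minimum 10, total 15), a block for replicate number, and p-values adjusted by Benjamini-Hochberg over 13000 genes, with a threshold of 0.05. The study's methods pair conditions by biological replicate, and same-numbered libraries deviated together (correlations across genes 0.0963 to 0.738 in 18 pairs, against -0.642 to 0.441 in 36 pairs of different number). CPM used TMM-scaled totals. Lengths and overlaps came from GENCODE on GRCh38, not the build of the counts, and promoter windows from RefSeq, which matched 8 of 9 members (13 windows). Scripts were tested on simulated data. Named genes were the members, the 4 other network genes, TXNIP, ARRDC4, HIF1A, EPAS1, in each other list the called genes (at most 4, those with the largest change) and the 5 genes most like MYC and MXI1. Members and lists were chosen with earlier results of these data known. Alternatives were DESeq2 (1.42.0) size factors or test, other filters, no block, fewer libraries and left-out libraries. A fit with a trend in GC content and length removed (splines, 5 degrees of freedom, 11697 genes) was chosen after seeing the data.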

Additional observations from a re-analysis of the deposited data

How the results depend on the processing

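With 1 cell line and 3 replicates, and with replicate number holding 45.4% of the variance over all tested genes, the number of calls moved with the fit, and the causes were not tested. In fits without the replicate block (without the pairing), members called fell to 0 in all comparisons (from 1 with HIF1A siRNA, 3 with the double knockdown, 1 in HIF1A against HIF2A siRNA and 1 in the double knockdown against HIF2A siRNA), and all genes called were 47 against 181 for HIF1A siRNA, 2 against 26 for HIF2A siRNA, 195 against 1336 for the double knockdown, 55 against 249 for HIF1A against HIF2A siRNA, and 8 against 182 and 90 against 520 for the double knockdown against HIF1A and HIF2A siRNA. In that order, for HIF1A siRNA, HIF2A siRNA, HIF1A against HIF2A siRNA and the double knockdown against HIF1A and HIF2A siRNA, DESeq2 called 298, 82, 434, 403 and 818 genes. For the interaction, DESeq2 called 11 genes, no filter 4 and the fit with the GC and length trend removed 3, against 0.

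With no filter, HIF2A siRNA gave 55 calls. With the GC and length trend removed, HIF2A siRNA gave 51 calls, and the double knockdown 351 against HIF1A siRNA and 815 against HIF2A siRNA. With only the 6 compared libraries, which also means fewer samples, HIF2A siRNA gave 3 calls, the double knockdown 2609 against control, 656 against HIF1A siRNA with 1 member (MXD4, 0.55, adjusted p = 0.00672, edgeR), and 164 against HIF2A siRNA with 0 members. With the 9 libraries without the double knockdown, HIF2A siRNA gave 11 calls.

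When a library or a replicate number was left out, calls ranged from 73 (without replicate 3) to 317 (without HIF2A siRNA replicate 2) for HIF1A siRNA with 0 to 1 members, from 1 to 49 for HIF2A siRNA with 0 members, from 302 (without replicate 3) to 2307 (without HIF2A siRNA replicate 2) for the double knockdown with 1 to 4 members, from 107 to 311 for HIF1A against HIF2A siRNA with 0 to 1 members, from 26 to 442 and from 158 to 672 (0 to 1 members) for the double knockdown against HIF1A and HIF2A siRNA, and from 0 to 3 for the interaction.

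MXI1 kept its direction in every alternative run for HIF1A siRNA and for the double knockdown against control, and its call in 21 of 23 and 21 of 22. MXD4 and MLX in the double knockdown kept their direction in all 22 and their call in 16 and 14. Values close to 0 changed sign: the log2 difference of MXI1 between the double knockdown and HIF1A siRNA was 0.019 without the replicate block and 0.030 with the GC and length trend removed, and ranged from -0.17 to 0.20 with libraries left out. With libraries left out, MXI1 with HIF2A siRNA ranged from -0.18 to 0.053, MYC with HIF2A siRNA from -0.11 to 0.20 and MYC with the double knockdown from -0.084 to 0.13. Of 62 further log2 fold changes of network genes, TXNIP and ARRDC4, interactions included and most not printed one by one, 40 changed sign in at least 1 alternative. Among these 62, 0 were called in any fit.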

Other observations

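Members varied together in part. After the mean of each replicate number was removed, log2 CPM over the 12 libraries had a Pearson correlation of 0.79 between MXD3 and MLX, 0.78 between MXD3 and MXD4, 0.71 between MYC and MAX and -0.77 between MXI1 and MLX. These values are a description, since the libraries share 4 groups and the sums of counts, and MXD3 and MXD4 lie at the 97.2 and 93.7 percentiles of GC content among the tested genes with a length and GC value. With the trend in GC content and length removed, the log2 fold change of MXD3 in the double knockdown was 0.46 (adjusted p = 0.0412, edgeR), that of MXD4 0.94 (adjusted p = 0.0024) and that of MLX 0.55 (adjusted p = 0.0135). The part of GC content in these results was not tested further.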
